A study of Schizosaccharomyces pombe with 2 samples.

Results

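ppr10 (SPBC106.19) encodes a mitochondrial pentatricopeptide repeat (PPR) protein of the fission yeast Schizosaccharomyces pombe. Its transcript, and those of the other PPR genes, were measured by RNA sequencing in 1 library of cells with ppr10 deleted and 1 library of wild-type cells, both from cultures in logarithmic growth. The labels do not say how the gene was deleted, whether the strain was a single clone or what other alleles the strains carried. The members were to be ppr10 and every gene whose Blast description in the deposited table contains PPR or pentatricopeptide. That search found ppr10 alone, 1 gene of 5076, and it found ppr10 by its identifier, since the description calls it a sequence orphan. The table has a dash in place of a description for 3733 genes. The other family members were therefore taken from the reference annotation, by a symbol or product that names a PPR protein. This gave 8 further genes, ppr1 to ppr8, and a dash stands for the description of all 8.

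PPR proteins are built from repeated pairs of helices that together bind single-stranded RNA. Nuclear genes encode them, and most act inside mitochondria or chloroplasts, where they keep particular transcripts stable, help to process them or control their translation. In fission yeast, Ppr10 is known to work with its partner Mpa1 in the synthesis of mitochondrially encoded proteins. As background on the others, Ppr4 activates translation of the cox1 mRNA, Ppr5 restrains mitochondrial translation, Ppr3 is needed for the small subunit ribosomal RNA of the mitochondrion, and Ppr6 and Ppr7 act on the atp9 and atp6 transcripts.

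The 2 libraries were of nearly equal depth. Uniquely mapped reads in genes numbered 16885000 in the deletion and 17053000 in the wild type (rounded to 1000), and the median gene had 1590 reads in the deletion and 1497 in the wild type. With 1 library per group there is no biological replicate, so no difference below could be set against the variation among cultures, and no p-value is given. In place of a replicate error, each ratio carries an exact (Clopper-Pearson) 95% interval from the reads of that gene. Reads were not marked as separate molecules, so these intervals cover counting error only. In bulk RNA, a change in every cell and a change in the share of cells that express a gene cannot be told apart.

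The 9 proteins had little sequence in common. They ranged from 432 residues (Ppr2) to 1261 (Ppr5), and Ppr10 has 515. Each protein was compared with all proteins of the annotation by BLASTP, and none of the 36 pairs within the family aligned at an E-value of 0.001 or below. Ppr10 had no hit to any other protein at that limit. Their amino ends were alike in charge. Over the first 30 residues, lysine and arginine outnumbered aspartate and glutamate by 3 to 5 in each of the 9 proteins, against a median of 0 over 5111 annotated proteins, of which 25.9% reached 3. A basic amino end is a known feature of mitochondrial targeting sequences. Of the 9 genes, 6 lie on chromosome II, 2 on chromosome I (ppr4 and ppr5) and 1 on chromosome III (ppr6), and 7 have an uninterrupted coding sequence.

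No family member had a near-identical copy. The longest stretch of any member with a match elsewhere in the genome was 45 bases at 80.0% identity, and for ppr10 it was 38 bases, whereas the reads were 150 bases long. The read length was taken from the table, in which every gene with 1 read had 150 covered bases, 17 genes in the deletion and 18 in the wild type. All 9 listed lengths equalled the annotated coding length, so RPKM were taken per coding length. Whether reads in untranslated regions were counted is not known. Noncoding RNAs are annotated on the opposite strand of all 9 coding sequences, as for 71.6% of all genes looked at. The sources used here do not say whether reads were counted by strand, so reads of such RNAs and of the genes cannot be told apart.

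The deleted gene was nearly, but not wholly, without reads in the library labelled as its deletion. ppr10 had 12 reads in the deletion library, against 1879 in the wild type. In RPKM, which correct the read count for gene length and library depth, that was 0.459 in the deletion and 71.2 in the wild type. The ratio was 0.00645 (95% interval 0.00333 to 0.0113). On the scale used for all genes, log2 of RPKM with 1 added to both values, the difference was −5.63, the lowest of the 4986 genes with a mean of at least 1 RPKM. In the wild type ppr10 was an ordinary gene, with a level above that of 52.4% of all genes listed, where the median gene stood at 67.1 RPKM.

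The few remaining reads touched most of the length of the gene. The deposited coverage score was read here as the share of the gene's length that reads touch, although it exceeds 100 in 7 genes. For ppr10 it was 69.8% in the deletion, against 99.7% in the wild type. On that reading, 1080 of the 1548 bases of the coding sequence were covered in the deletion and 468 were not. At 150 bases each, the 12 reads hold 1800 bases, and at least 8 of them must lie at different places to cover 1080. The 12 reads were therefore not all stacked at 1 place, but whether the uncovered bases lie together is not known. Among the 7 other genes of like length (within 1.5-fold) that had 6 to 24 reads in the same library, coverage ranged from 32.6% to 89.2%. The 3 above ppr10 were shorter, at 1077 to 1311 bases, and had more reads, 18 to 24. The 4 below it had 8 to 20 reads over 1155 to 2022 bases. Of these, SPBPB8B6.02c also had 12 reads, on 2022 bases, and a coverage of 44.5%. The table does not say where along the gene the reads lie. The source of the 12 reads was not tested.

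**Figure D1:**
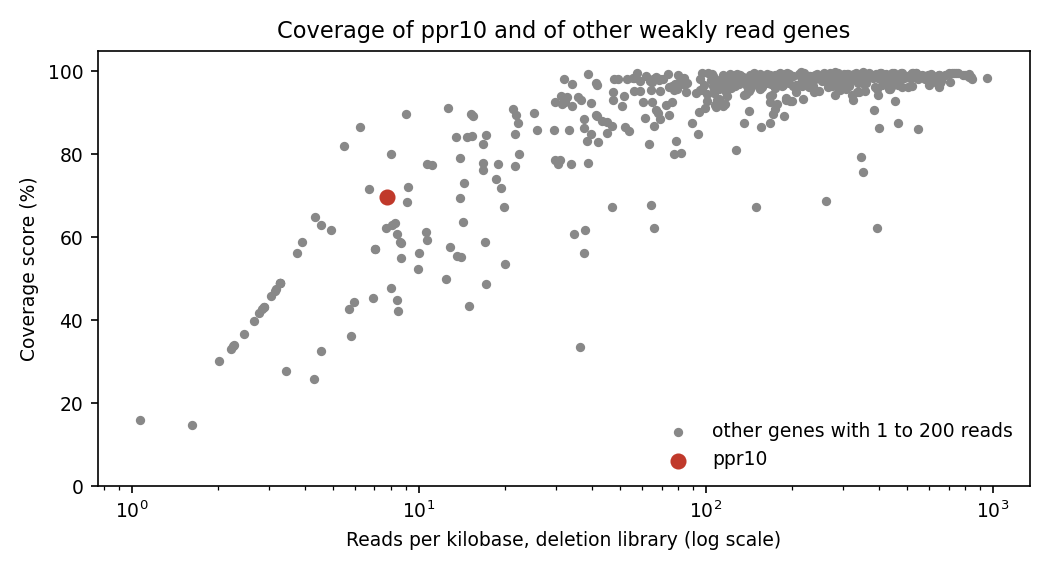
Coverage score (read here as the percent of the gene length touched by reads) against reads per kilobase on a log scale. Shown are genes with 1 to 200 reads in the ppr10 deletion library. Each grey point is a gene and the red point is ppr10, whose 12 reads cover 69.8% of its length and which lies among other weakly read genes.

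All 9 members passed the filter of 1 RPKM, and the other 8 were well measured in both libraries. They had between 768 and 6509 reads, and their coverage was at least 99.5% of the length. The order of their levels per length differed somewhat between the libraries. In the deletion ppr8 was highest at 267 RPKM (260 to 273), followed by ppr6 at 86.0, ppr1 at 74.8, ppr3 at 71.0, ppr5 at 59.2, ppr7 at 49.1, ppr4 at 43.1 and ppr2 at 35.0. Of these neighbours in the order, only ppr1 and ppr3 had counting intervals that overlapped. In the wild type ppr8 was again highest at 164 RPKM (159 to 169), followed by ppr3 at 89.0, ppr6 at 84.5, ppr1 at 81.0, ppr10 at 71.2, ppr7 at 59.5, ppr5 at 44.7, ppr2 at 41.8 and ppr4 at 40.6. There the intervals of ppr3, ppr6 and ppr1 overlapped from each to the next, as did those of ppr5, ppr2 and ppr4. ppr8, whose product is annotated only as a PPR protein, thus stood apart at the top in both libraries.

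**Figure D2:**
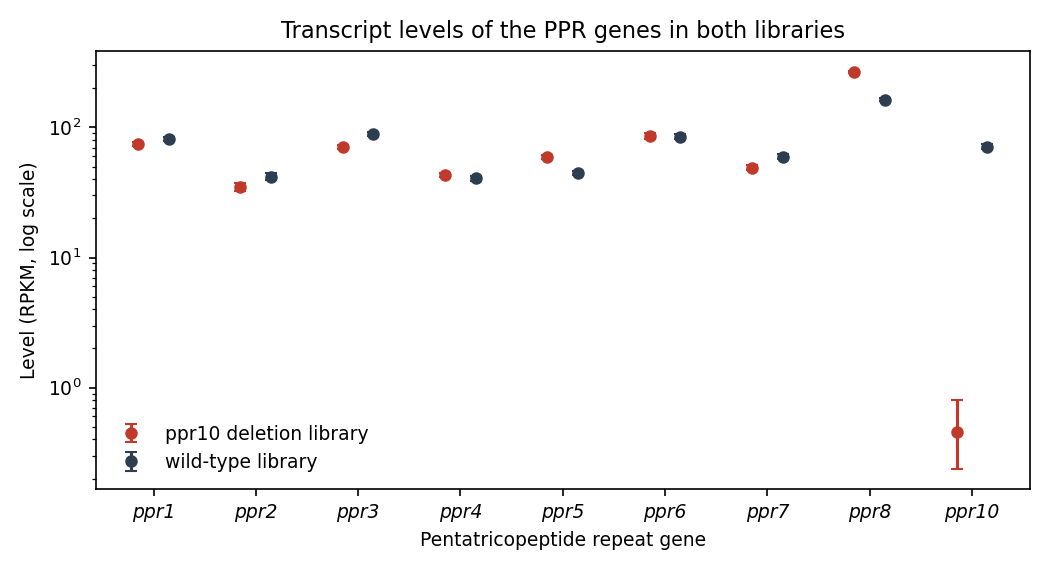
Level of each PPR gene in RPKM on a log scale, in the ppr10 deletion library (red) and the wild-type library (dark), with exact 95% Poisson intervals of the reads. ppr10 stands at 0.459 RPKM in the deletion and 71.2 in the wild type, while the other 8 genes lie between 35.0 and 267 RPKM in both libraries.

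The rest of the family was then examined for higher transcript levels in the absence of ppr10. None of the 8 other PPR genes reached a level 2-fold higher or 2-fold lower in the deletion. Over all 4986 genes kept, 2.79% were at least 2-fold higher and 1.14% at least 2-fold lower. The intervals of all 8 ratios lay between 0.757 and 1.70, so in these libraries counting error alone does not leave room for a 2-fold difference. In sign the family was evenly split, with 4 positive and 4 negative differences. The median log2 difference of the 8 was −0.04, against 0.05 over all genes kept.

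ppr8 had the largest difference of the 8. It had 6509 reads in the deletion library, against 4034 in the wild type, a ratio of 1.63 (1.57 to 1.70) and a log2 difference of 0.70. That difference ranked 289 among the 4986 genes, counted from the highest. It was the 1 member past 1.5-fold, a limit that 7.94% of all genes kept exceeded upwards and 4.49% downwards.

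ppr5, the gene of the restraining factor, was the only other member with an interval wholly above 1. It had 3784 reads in the deletion library, against 2883 in the wild type, a ratio of 1.33 (1.26 to 1.39). Both ppr8 and ppr5 lay above the upper quartile of all genes, which was a log2 difference of 0.26.

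The next 4 members lay a little lower in the deletion library, each with an interval wholly below 1. ppr3, known from its budding yeast relative and from fission yeast for its part in keeping the small ribosomal RNA, had 2476 reads in the deletion and 3131 in the wild type, a ratio of 0.799 (0.757 to 0.842). For ppr7, which acts on the atp6 transcript, there were 1640 reads in the deletion and 2006 in the wild type, a ratio of 0.826 (0.773 to 0.882). These differences are smaller than that of ppr8. ppr2 had 768 reads in the deletion and 925 in the wild type, a ratio of 0.838 (0.761 to 0.924), and ppr1 had 2644 in the deletion and 2893 in the wild type, a ratio of 0.923 (0.875 to 0.973).

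For the remaining pair the interval included 1, so a difference was not detectable at this depth. ppr4, the cox1 translation activator, had 2034 reads in the deletion and 1938 in the wild type, a ratio of 1.06 (0.996 to 1.13). ppr6, which acts on the atp9 transcript, had 1934 reads in the deletion and 1920 in the wild type, a ratio of 1.02 (0.955 to 1.08). The log2 difference of ppr6 was 0.02, and −0.03 when the libraries were scaled so that the median gene had no difference. At this depth an interval that leaves out 1 is common. It was so for 6 of the 8 members, 2 above and 4 below, and for 70.4% of all genes kept, 40.7% above and 29.7% below.

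**Figure D3:**
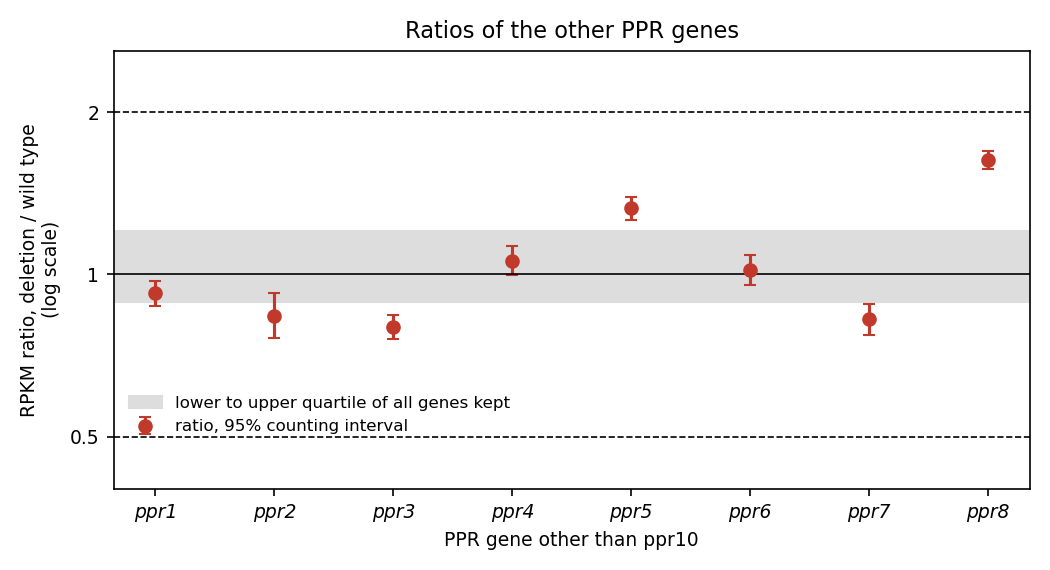
RPKM ratio, deletion over wild type, on a log scale for the 8 PPR genes other than ppr10, with 95% counting intervals. The grey band runs from the lower to the upper quartile of all genes kept and the dashed lines mark 2-fold; ppr8 at 1.63 and ppr5 at 1.33 lie above the band, and no gene reaches 2-fold.

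**Figure D4:**
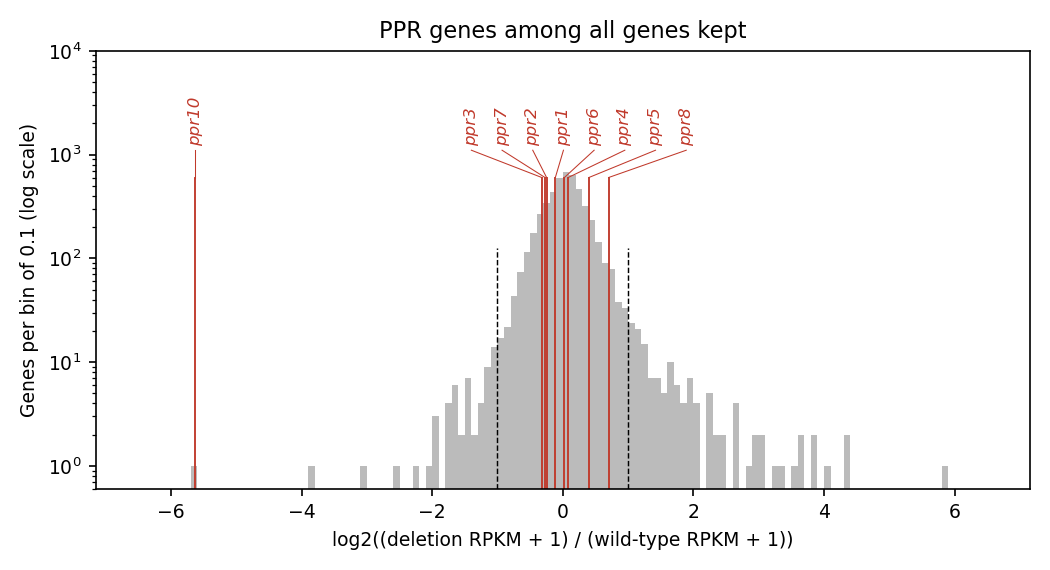
Histogram of the log2 difference, deletion over wild type, of the 4986 genes kept, with the number of genes per bin on a log scale and dashed lines at 2-fold. Red lines mark the 9 PPR genes: ppr10 lies alone at −5.63, and the other 8 lie between −0.32 and 0.70, inside the main body of genes.

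Added over the family, the transcripts of the other 8 genes amounted to 685 RPKM in the deletion library and 605 in the wild type, a ratio of 1.13. Their summed reads, corrected for library depth, gave a ratio of 1.12 (1.09 to 1.14). This excess rested on ppr8. The other 7 without it summed to 418 RPKM in the deletion and 441 in the wild type, a ratio of 0.948, and their reads gave 0.983 (0.961 to 1.01). In RPKM, the difference of deletion minus wild type was 103 for ppr8 and −70.7 for ppr10. With ppr10 included, the whole family came to 685 RPKM in the deletion and 676 in the wild type. This total and the shares that follow include ppr10, so part of the shift in shares was set by the deletion itself. Whether the differences of ppr8 and ppr10 are related was not tested. ppr8 made up 38.9% of the family's RPKM in the deletion and 24.2% in the wild type, and ppr10 0.067% in the deletion and 10.5% in the wild type. The amounts and activity of the proteins were not measured.

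A pair of genes related to the family by name or structure was also looked at. rpo41, the mitochondrial RNA polymerase, whose relatives carry PPR-like motifs, stood at 65.1 RPKM in the deletion and 66.6 in the wild type, a ratio of 0.979 (0.936 to 1.02). mtf2, a translation protein with the older name ppr12, stood at 106.16 RPKM in the deletion and 96.9 in the wild type, a ratio of 1.10 (1.02 to 1.17).

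Genes that act with Ppr10 were compared in the same way. The partner gene mpa1 had 963 reads in the deletion and 1382 in the wild type, a ratio of 0.704 (0.647 to 0.765). The initiation factor genes mti2 and mti3, whose products start mitochondrial translation, had ratios of 0.953 (0.888 to 1.02) and 0.991 (0.895 to 1.10). All 3 thus lay between the 2-fold limits, which 3.93% of all genes kept passed in either direction. At that share, lists as short as this and those below would often hold no such gene. Only for mpa1 did the interval leave out 1, as it did for 70.4% of all genes kept.

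Of 9 genes of mitochondrial translation factors, none reached 2-fold in either direction, against 3.93% of all genes kept. Their median log2 difference was −0.09, against 0.05 over all genes kept. The elongation factor gene mef1 had the lowest ratio, 0.577 (0.544 to 0.613), while its relative mef2 stood at 1.21 (1.12 to 1.29). mef1 ranked 4887 among the 4986 genes, counted from the highest log2 difference. It was past 1.5-fold lower, as were 4.49% of all genes kept. tuf1, the gene of the factor that brings tRNAs to the ribosome, stood at 0.784 (0.754 to 0.815), and tsf1, of its exchange factor, at 0.830 (0.759 to 0.907).

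None of 11 genes listed for mitochondrial RNA synthesis and processing reached 2-fold, against 3.93% of all genes kept, and their median was −0.05. mtf1, of the polymerase specificity factor, had a ratio of 1.28 (1.18 to 1.38), trz2, of a tRNA-processing endonuclease, 0.731 (0.677 to 0.789), and mrm2, of a ribose methyltransferase, 0.785 (0.613 to 1.005). By annotated product, 2 of the 11 have another function. They are nuc1, a subunit of RNA polymerase I (0.797, 0.773 to 0.821), and dss1, a proteasome receptor.

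None of 13 genes of translational activators and assembly partners reached 2-fold, against 3.93% of all genes kept, and their median was 0.09. One of them, cbs2, is annotated as a protein kinase activator. cbp6 stood at 1.55 (1.34 to 1.80), oxa102 at 0.825 (0.775 to 0.877), cbp8 at 0.800 (0.753 to 0.850) and cbp4 at 1.20 (0.927 to 1.57). The mitochondrially encoded genes, whose transcripts PPR proteins bind, were too weakly read to be followed singly. The 9 listed held 61 reads in the deletion and 102 in the wild type, and none reached a mean of 1 RPKM. Their summed reads, corrected for library depth, gave a ratio of 0.604 (0.432 to 0.838), which rests on these few reads.

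The genes on both sides of ppr10 on chromosome II had over 1000 reads in each library, with fewer in the deletion than in the wild type. The nearest listed genes are rpl2501, of a cytosolic ribosomal protein, on one side and exo70, of the exocyst, on the other. rpl2501 had 5027 reads in the deletion and 7433 in the wild type, a ratio of 0.683 (0.659 to 0.708). exo70 had 1315 in the deletion and 1793 in the wild type, a ratio of 0.741 (0.689 to 0.796). Both intervals lay wholly below 1, as for 29.7% of all genes kept. Counted from the highest log2 difference, rpl2501 ranked 4722 and exo70 4532 among the 4986 genes. Whether the deletion plays a part in either difference was not tested.

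Of the 5 nearest listed genes on each side, 1 was past the 2-fold limit, and 3.93% of all genes kept were past it in either direction. It was cys2, the second gene from ppr10, which encodes homoserine acetyltransferase of the methionine and cysteine pathway. cys2 had 10893 reads in the deletion and 3426 in the wild type, a ratio of 3.21 (3.09 to 3.34). The gene that lies between cys2 and ppr10 is rpl2501. Whether the position beside the deleted gene plays a part was not tested.

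The other neighbours lay between the limits. Beyond cys2 came pre6, of the proteasome, at 1.25 (1.20 to 1.29), idi1, of isoprenoid synthesis, at 0.655 (0.629 to 0.683), and sda1 at 0.838 (0.809 to 0.868). On the other side cdc13, the mitotic cyclin gene, stood at 0.884 (0.851 to 0.919), dsh1 at 1.08 (1.02 to 1.15) and brc1 at 0.972 (0.900 to 1.05). mcp6, a meiotic gene with 206 reads in the deletion and 116 in the wild type, stood at 1.79 (1.42 to 2.27).

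**Figure D5:**
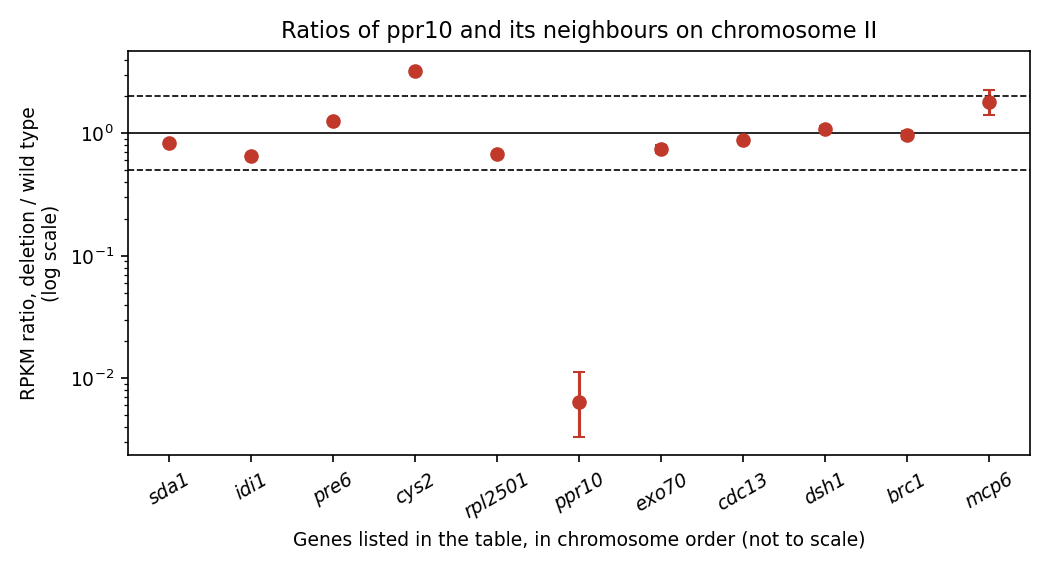
RPKM ratio, deletion over wild type, on a log scale for ppr10 and the 5 nearest listed genes on each side, in chromosome order and not to scale, with 95% counting intervals and dashed lines at 2-fold. ppr10 stands at 0.00645, cys2 at 3.21, and the other 9 genes lie between 0.655 and 1.79.

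No gene had a pattern close to that of ppr10. Likeness was measured as the distance between genes over the log2 levels of both libraries, with 1 RPKM added, which covers only 2 values per gene. No gene lay within a distance of 1. The nearest was SPCC569.03, an uncharacterised gene, at a distance of 1.23, with 29 reads in the deletion and 704 in the wild type. SPBC460.05, which the annotation does not match, followed at 1.87, with 51 reads in the deletion and 627 in the wild type. The third was SPCP20C8.02c at 2.47, with 13 reads in the deletion and 86 in the wild type. Copies of it in the genome were not searched for here. Of 6 auxotrophic marker genes in the list, ura4 and his3 are not analysed here. The other 4, ade6, leu1, his7 and lys1, had 4168 reads or more in both libraries, at ratios of 0.988, 0.784, 0.967 and 0.734.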

How the data were processed

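RNA was measured in 1 ppr10 deletion library and 1 wild-type library, grouped by genotype label and by the prefixes of the deposited columns. Per the submitters' processing notes, Bowtie2 2.2.3, TopHat2 2.0.12 and the build ASM294v2 were used. The sources used here do not name the counter, annotation release or strand setting. Per the file headers, the deposited table holds counts of uniquely mapped reads, RPKM and a coverage score per gene. Recomputing the authors' RPKM from the reads gave differences of at most 4.99e-07. The coverage score exceeds 100 in 7 genes.

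Differences were taken between log2 values of RPKM + 1, deletion minus wild type. The limit was 2-fold among 4986 genes with a mean of at least 1 RPKM. Intervals were Clopper-Pearson for ratios and Poisson for levels. The ratio intervals were run on simulated Poisson counts, for which they hold by construction, so that run checks only the computation. Counts served only for intervals, since 1 library per group allows no count model. Genes were named by rule: all members, partners and neighbours, up to 4 genes at a mean of at least 5 RPKM with the largest difference in each other list, and the 3 nearest to ppr10. rpo41 and mtf2 were added after their values were seen.

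Names, gene order and sequences came from RefSeq ASM294v3, a later build, so no coordinates or sequences are given. Of 5076 identifiers, 5048 matched. Protein and genome searches used BLAST 2.17.0, and other steps Python 3.11.15 and scipy 1.17.1. Members and lists were chosen with earlier results of these data known. The table's text named no other PPR gene, so the annotation defined the family. Of the symbols written in the lists, 8 matched no gene used here and are not analysed: pah1 and suv3 (older names of rpm2, which was used), mtr1, cbs1, pet309, pnt1, ura4 and his3.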

Additional observations from a re-analysis of the deposited data

How the results depend on the processing

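Of 151 values and counts computed under alternative settings, 145 stayed within 1.5 times the count or within the counting interval of the value. Those that only changed the filter on low levels could not move, since every gene compared had a mean above 5 RPKM. The log2 difference of ppr10 depended on the pseudocount, at −6.99 with 0.1 RPKM and −3.80 with 5 RPKM, because its level in the deletion lies below 1 RPKM. At a limit of 1.5-fold, 1 of the 8 other PPR genes, ppr8, was higher. The summed ratio of these 8 was 1.09 when scaled so that the median gene had no difference and 1.17 when rescaled to TPM. It was 0.948 without ppr8, an alternative chosen after seeing the data, so its direction rests on that gene. Over 40 values of single members, 1 changed sign, that of ppr6 as given above. Lists without members of another function, also chosen after seeing the data, kept 0 genes past 2-fold. Choosing members by the table's own text gave no value for the other family genes, since it found none. No paired analysis was possible because the deletion and the wild type have 1 library each, and no library could be left out. Depth limits ppr10 itself, with 12 reads in the deletion, more than any other member.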
